A study of Mus musculus with 9 samples.

Results

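The scavenger receptors described here were 9 genes, Marco, Msr1, Cd36, Scarb1, Scarb2, Cd163, Stab1, Cd68 and Olr1, chosen by name out of the 53379 genes in the deposited expression table. Each name had 1 row, and all 9 passed the filter on low values, a mean over the 9 libraries of at least 0.5 FPKM (fragments scaled by exon length and library size), which 12824 genes passed.

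Scavenger receptors are surface or lysosomal proteins of several unrelated structural classes that bind modified lipoproteins, other polyanions, dying cells, microbes or haemoglobin complexes and deliver them for uptake and degradation. In macrophages (Mϕs) they clear debris and load the cell with lipid. Their repertoire is commonly read as part of the state into which a cytokine has driven the cell.

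Bone marrow (BM)-derived Mϕs came from wild-type C57BL/6 mice, and the design text names 3 mice. Cells grew for 3 days in 10 ng/ml macrophage colony-stimulating factor (M-CSF). They then received for 4 days the same M-CSF alone (Control), M-CSF with 10 ng/ml IL-4, or M-CSF with 100 ng/ml IL-6, with 3 libraries a group numbered #1 to #3. The study's methods give another IL-4 dose, and its figure legends other doses and another time; the labels are followed here. Every group thus carried M-CSF, and these Mϕs were differentiated in culture from whole BM.

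The libraries held 29988160 to 39909571 fragments on genes. All 12 Mϕ markers tested were expressed in every group. Socs3, a direct target of IL-6 signalling, rose by 5.12 on the log2 scale with IL-6, and Arg1, a standard IL-4 target, rose by 10.58 with IL-4. Libraries fell into sets by transcripts of another tissue: 14 intestinal genes took 31.1 to 46.95 of every 1000000 fragments in the 3 Control libraries and IL-4 #1, but 0.0990 to 0.245 of every 1000000 in IL-4 #2, IL-4 #3 and the 3 IL-6 libraries. Control and IL-6 therefore lay wholly in different sets, and the set and IL-6 cannot be told apart except through the IL-4 libraries. IL-4 #3 was low in long genes, with a median log2 ratio to the other IL-4 libraries of −0.88 over 3989 genes with more than 5 kb of exons and 0.35 over 2974 genes with less than 2 kb. For the scavenger receptors described here, estimates from a fit that also held the library set, and the position of IL-4 #3, are given below where they move a value. For the other genes named below no value of that fit is given. Their IL-6 values against Control therefore cannot be told apart from the library set. In the fit with the library set, the set is estimated only from IL-4 #1 against IL-4 #2 and #3. Its IL-4 value against Control therefore compares IL-4 #1 alone with Control. The low long genes of IL-4 #3 enter its IL-6 value against Control.

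The bases just upstream of the annotated start are shown for the 4 receptors with the largest differences, 3 that fell with IL-4 (Marco, Stab1, Cd163) and 1 that moved in opposite directions with the cytokines (Cd36). They are RefSeq sequences of GRCm38.p6, 250 bases ending just before the start, written 5′ to 3′ on the strand of the gene, with capitals marking GAGGAA, a core recognised by the myeloid factor PU.1. The Marco window lies at chr1:120505025-120505274 (minus strand), that of Stab1 at chr14:31168642-31168891 (minus), that of Cd163 at chr6:124304401-124304650 (plus) and that of Cd36 at chr5:17835897-17836146 (minus), where the RefSeq start lies inside the span of the gene in the files' annotation.
Marco: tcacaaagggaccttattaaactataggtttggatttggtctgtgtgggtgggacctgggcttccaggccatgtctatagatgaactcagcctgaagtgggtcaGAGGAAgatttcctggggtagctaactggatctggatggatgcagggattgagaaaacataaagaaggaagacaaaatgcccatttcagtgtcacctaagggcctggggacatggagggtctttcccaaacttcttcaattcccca
Stab1: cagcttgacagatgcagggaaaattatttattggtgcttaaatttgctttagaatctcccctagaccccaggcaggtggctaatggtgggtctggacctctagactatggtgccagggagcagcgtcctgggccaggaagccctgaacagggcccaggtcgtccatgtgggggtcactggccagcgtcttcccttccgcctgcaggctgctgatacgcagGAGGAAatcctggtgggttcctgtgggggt
Cd163: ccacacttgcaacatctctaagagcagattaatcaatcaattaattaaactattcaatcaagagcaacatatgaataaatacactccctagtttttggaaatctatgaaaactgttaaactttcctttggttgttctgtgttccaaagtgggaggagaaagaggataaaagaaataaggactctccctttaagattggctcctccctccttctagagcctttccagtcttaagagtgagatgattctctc
Cd36: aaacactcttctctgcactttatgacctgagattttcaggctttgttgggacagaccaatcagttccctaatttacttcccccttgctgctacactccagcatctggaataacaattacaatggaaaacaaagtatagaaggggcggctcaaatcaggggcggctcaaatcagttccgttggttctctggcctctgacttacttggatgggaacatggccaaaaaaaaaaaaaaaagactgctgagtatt

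RefSeq windows, 250 bases before to 50 after the start, were at hand for 7 of the 9 receptors and for 32851 promoters in all. GAGGAA on either strand stood in those of Marco, Stab1, Cd68 and Olr1, against 28.3% of all windows. In Marco it began 146 bases and in Stab1 30 bases before the start. TGACTCA, the site of AP-1, stood in the windows of Cd68 and Olr1, against 5.2% of all. The spacing bound by STAT6, TTC and GAA with 4 bases between them, occurred in Cd36 alone among the receptors, as TTCACCAGAA beginning 20 bases after the start and thus past the stretch shown, against 6.95% of all windows. The STAT3 type, with 3 bases between TTC and GAA, was in 8.3% of all windows and in 0 of the 7, and a pair of AGGTCA sites 1 base apart, the type bound by PPARγ with RXR, was in 0.0396% and in 0 of the 7. These matches describe letters in the window only.

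FPKM, being per exon length, allows a rough comparison of levels between genes. The length that fits these values is the union of all annotated exons, which can exceed that of the transcript expressed. In Control Mϕs Cd68 stood first at 1513 ± 177.8 FPKM (SD, n = 3), followed by Cd36 at 311 ± 67.8 and Stab1 at 271 ± 60.9, whose ranges overlapped. Scarb2 came next, then Marco and Msr1, again with overlapping ranges, then Scarb1 and Cd163, and Olr1 was last at 0.792 ± 0.160. With IL-4 the order changed at both ends: Cd36 was first at 921 ± 256.5 with a range overlapping that of Cd68, and Marco was last at 0.309 ± 0.104, overlapping Cd163. Msr1 overlapped Scarb2, Scarb1 overlapped Stab1, and Olr1 overlapped Cd163 among the IL-4 libraries. With IL-6 no neighbours overlapped, and the order ran Cd68, Stab1, Marco, Scarb2, Msr1, Cd36, Scarb1, Cd163 and Olr1. Cd36 thus ranked 2 of 9 in Control and 6 of 9 with IL-6, and Marco 5 and 3.

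**Figure D1:**
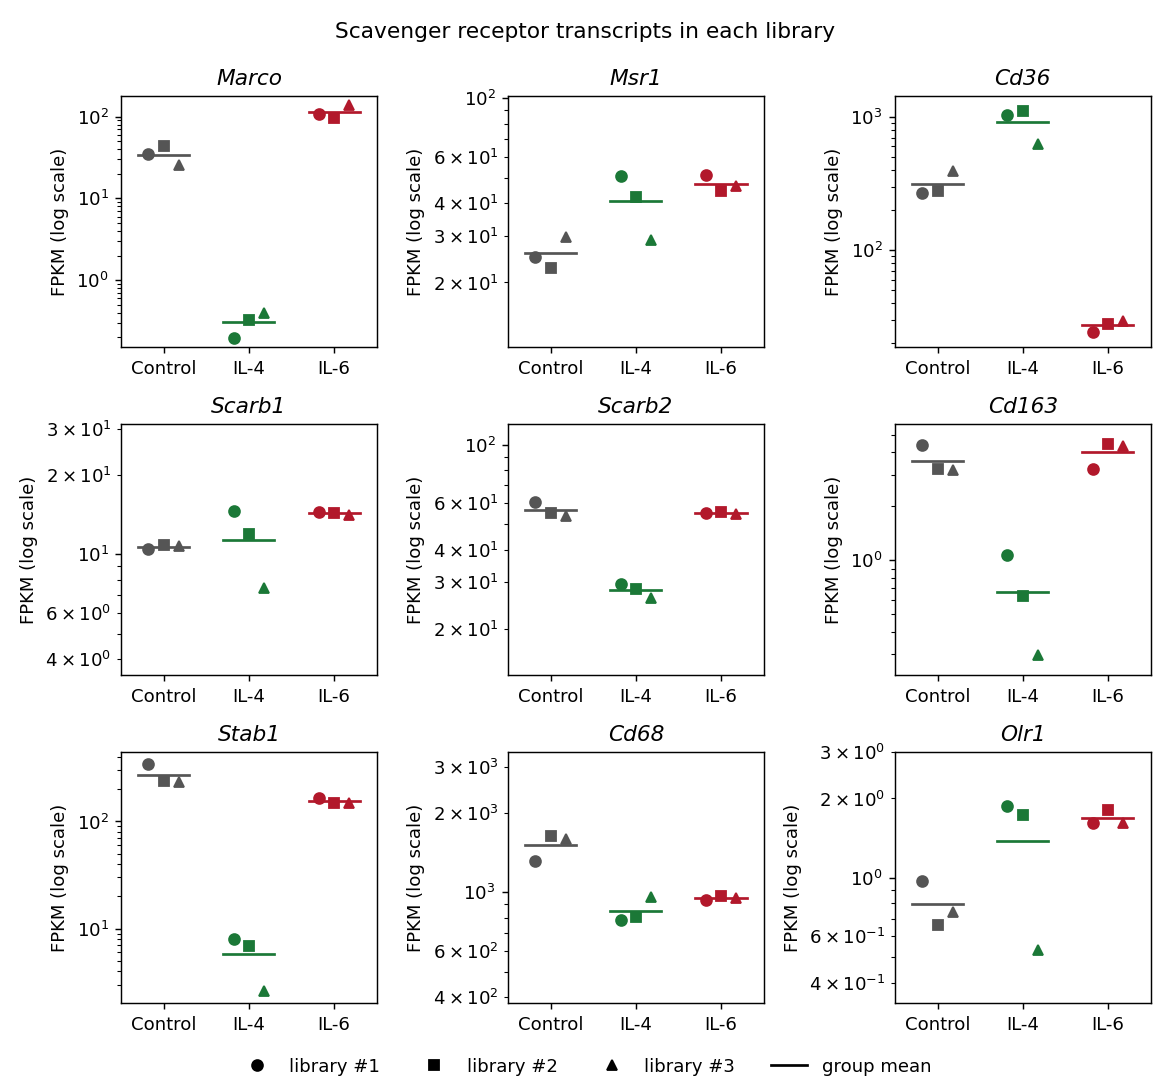
FPKM of the 9 scavenger receptors in every library, 1 panel a gene, on a log scale; symbols mark library #1 (circle), #2 (square) and #3 (triangle) and lines the mean of 3. Marco, Stab1 and Cd163 drop with IL-4, Cd36 is highest with IL-4 and lowest with IL-6, and IL-4 #3 is the lowest of its group for Olr1 (0.533 FPKM).

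Marco, a class A receptor of phagocytes that takes up bacteria and particles, was nearly lost with IL-4 and rose with IL-6. It (ENSMUSG00000026390.7) lies at chr1:120474538-120505024 on the minus strand of GRCm38. The Control libraries read 34.5, 43.2 and 25.4 FPKM, the IL-4 libraries 0.198, 0.326 and 0.404, and the IL-6 libraries 108.4, 95.5 and 137.9. The 3 groups did not overlap, with every IL-4 library low and every IL-6 library high. With IL-4 the mean was 111-fold below Control (log2 fold change −6.40 ± 0.26 SE, adjusted p = 3.19e-06), and rested on 13 to 31 fragments a library. This was rank 2 from the lowest of 12824 genes. In bulk RNA, fewer Mϕs that express a gene and less RNA per cell cannot be told apart.

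With IL-6, Marco reached 3.32 times the Control mean (log2 fold change 1.74 ± 0.26, adjusted p = 0.00557). A fit that also held the library set gave 1.11 (adjusted p = 0.236), so this call was lost. Between the cytokines the IL-6 mean was 369 times the IL-4 mean (log2 fold change 8.14, adjusted p = 8.24e-07), and within the set low in intestinal transcripts the ratio was 312.5. The fold on the log2 scale understates that of a gene this low, because 0.1 was added to every FPKM.

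Msr1, the other class A receptor, which binds modified low-density lipoprotein, did not fall with IL-4. It (ENSMUSG00000025044.16) lies at chr8:39581685-39642673, minus strand. Control libraries held 24.9, 22.8 and 29.9 FPKM, IL-4 libraries 51.0, 42.2 and 29.0, and IL-6 libraries 51.0, 44.4 and 46.6. All IL-6 libraries lay above all Controls, while IL-4 #3 lay within the Control range. On the log2 scale IL-4 gave 0.62 (adjusted p = 0.0613) and IL-6 0.88 ± 0.21 (adjusted p = 0.0381), the latter under the fold of 1 required for a call. With the replicate number as a block the adjusted p with IL-6 was 0.0655, and a fit with the library set gave 1.42 (adjusted p = 0.0868). For IL-4 the fit with the library set, resting on IL-4 #1 alone, gave 0.99. Median-ratio rescaling gave 0.82 for IL-4 (adjusted p = 0.00571). Both IL-4 values were under the fold of 1. IL-6 and IL-4 differed by 0.25, with a 95% interval of −0.22 to 0.73. Msr1 has 6.34 kb of exons, and IL-4 #3 lay 0.68 below the other IL-4 libraries on the log2 scale (−0.68).

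Cd36, a class B receptor for oxidised lipoprotein and long-chain fatty acids, rose with IL-4 and fell with IL-6. It (ENSMUSG00000002944.15) lies at chr5:17781690-17888801 on the minus strand. The Control libraries read 266.5, 277.5 and 389.1 FPKM and the IL-4 libraries 1027, 1107 and 628.3. The IL-6 libraries read 24.2, 28.0 and 29.3 FPKM, on 3033 to 3277 fragments. The 3 groups did not overlap, in the reverse order of Marco.

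With IL-4 Cd36 was 2.96 times Control (log2 fold change 1.54 ± 0.24, adjusted p = 0.00256). IL-6 brought it 11.5-fold down (log2 fold change −3.50 ± 0.24, adjusted p = 0.000171), rank 24 from the lowest of all tested genes. IL-6 lay 33.9-fold below IL-4 (log2 fold change −5.04, adjusted p = 3.72e-06). With the library set in the fit the IL-6 call held (log2 fold change −3.20, adjusted p = 0.0244). The IL-4 value of that fit, 1.74, compares IL-4 #1 alone with Control and is no check of the call. Adipocytes and endothelium also express Cd36. Summed over 4 adipocyte markers the level was 0.898 to 1.24 FPKM in IL-4 libraries, nearly all Adipoq, against 0.00613 to 0.0362 in Control and 0 to 0.0288 with IL-6. Summed over 5 endothelial markers it was 2.05 to 3.96 FPKM with IL-4, 3.17 to 3.60 in Control and 4.88 to 8.15 with IL-6. The part of such cells in the Cd36 difference was not tested.

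Scarb1, the class B receptor for high-density lipoprotein, passed no test in the main fit. It (ENSMUSG00000037936.15) lies at chr5:125277087-125341094, minus strand. Control libraries held 10.5, 10.8 and 10.7 FPKM, IL-6 libraries 14.5, 14.3 and 14.1, and IL-4 libraries 14.6, 11.9 and 7.41. IL-6 lay above Control without overlap, but its log2 fold change of 0.42 had an adjusted p of 0.339. In a fit of IL-6 and Control alone its adjusted p was 0.00671, with the change still short of the fold of 1. The IL-4 value of 0.03 (95% interval −0.48 to 0.54) spanned both directions. Holding the library set in the fit moved the IL-6 value to 1.05 (adjusted p = 0.163). The IL-4 value, then from IL-4 #1 alone, moved to 0.45. IL-4 #3 was the lowest IL-4 library and lay at −0.82 on the log2 scale from its companions in this gene of 8.50 kb.

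Scarb2, a lysosomal membrane protein of class B that carries glucocerebrosidase to the lysosome, fell with IL-4 and passed no test for IL-6 against Control. It (ENSMUSG00000029426.8) lies at chr5:92441314-92506833, minus strand. The values were 60.8, 55.0 and 53.6 FPKM in Control, 29.5, 28.4 and 26.3 under IL-4, and 54.9, 55.6 and 54.5 under IL-6. Every IL-4 library lay below every other library. The log2 fold change with IL-4 was −1.01 ± 0.10 (adjusted p = 0.000231), only just past the fold of 1. Of 21 alternative settings, 7 put it under that fold, at −0.81 at the nearest to 0. Leaving out 1 library, its adjusted p ran from 7.56e-05 to 0.00202. With IL-6 the difference from Control was −0.04, with a 95% interval of −0.27 to 0.19 (adjusted p = 0.872). Between the cytokines IL-6 lay 0.97 above IL-4 on the log2 scale (adjusted p = 0.000194), just under the fold of 1. This difference became a call in 4 of 21 alternative settings, among them the adjusted p alone.

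Stab1, a class H receptor that takes up acetylated lipoprotein and matrix fragments, was nearly lost with IL-4 as well. It (ENSMUSG00000042286.13) lies at chr14:31139013-31168641 on the minus strand. Control libraries held 341.5, 236.2 and 235.9 FPKM, IL-4 libraries 7.99, 6.84 and 2.60, and IL-6 libraries 166.3, 148.2 and 149.7. The groups did not overlap, IL-4 being far below both. With IL-4 the mean fell 46.7-fold (log2 fold change −5.65 ± 0.38, adjusted p = 3.19e-05), rank 4 from the lowest.

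With IL-6 Stab1 stood at −0.79 ± 0.38 on the log2 scale (adjusted p = 0.286). A fit of IL-6 and Control alone gave the same value with an SE of 0.16 (adjusted p = 0.0164), under the fold of 1. The estimate was 0.11 once the fit held the library set (adjusted p = 0.903), a term estimated from the IL-4 libraries alone. Between the cytokines Stab1 was 26.6 times higher with IL-6 (log2 fold change 4.86, adjusted p = 4.56e-05). Stab1 has 10.29 kb of exons, the longest of the 9, and IL-4 #3 lay at −1.47 from the other IL-4 libraries. IL-4 #1 and #2 alone were likewise under 8 FPKM. Of its exonic bases 112 (1.09%) overlap Nt5dc2 on the opposite strand, a gene that reached 44.4 FPKM at most. No other receptor shares exonic bases with another gene.

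Cd163, which takes up haemoglobin bound to haptoglobin, was much less abundant and also fell with IL-4. It (ENSMUSG00000008845.9) lies at chr6:124304656-124330527, plus strand. The 3 Control libraries read 4.37, 3.20 and 3.17 FPKM, the IL-4 libraries 1.07, 0.634 and 0.298, and the IL-6 libraries 3.22, 4.41 and 4.33. IL-4 lay below both other groups, and Control and IL-6 overlapped. The mean with IL-4 was 5.37-fold lower on 65 to 199 fragments a library (log2 fold change −2.38 ± 0.37, adjusted p = 0.00236). With IL-6 the difference was 0.15, with a 95% interval of −0.69 to 0.99 (adjusted p = 0.849). With the set in the fit the IL-6 difference was 1.26 ± 0.49 (adjusted p = 0.249), outside the interval. For IL-4 that fit compares IL-4 #1 alone with Control and gave −1.64. IL-4 #3, which enters the IL-6 value through the set term, lay at −1.22 from its companions.

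Cd68, a class D receptor of lysosomes and a general Mϕ marker, had lower values with both cytokines. It (ENSMUSG00000018774.13) lies at chr11:69664213-69666153, minus strand. Control libraries held 1311, 1642 and 1588 FPKM, IL-4 libraries 785, 808 and 957, and IL-6 libraries 934, 968 and 953. Each treated library lay below each Control. The log2 fold changes of −0.83 ± 0.14 with IL-4 (adjusted p = 0.00332) and −0.66 ± 0.14 with IL-6 (adjusted p = 0.0231) were under the fold required for a call. With the library set in the fit, IL-6 gave −0.83 and its adjusted p was 0.170. The cytokines differed by 0.17, with a 95% interval of −0.15 to 0.49.

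Olr1, the lectin-like receptor for oxidised lipoprotein (class E), was the least abundant receptor in Control. It (ENSMUSG00000030162.14) lies at chr6:129485244-129507165, minus strand. Control libraries held 0.970, 0.663 and 0.742 FPKM, IL-4 libraries 1.88, 1.74 and 0.533, and IL-6 libraries 1.62, 1.81 and 1.61. IL-6 lay above Control in every library, whereas IL-4 #3 was the lowest of all 9. On the log2 scale IL-4 gave 0.58 (adjusted p = 0.345) and IL-6 1.01 (adjusted p = 0.207). The fit with the library set gave 1.16 for IL-4, from IL-4 #1 alone, and 1.88 for IL-6 (adjusted p = 0.229). Without IL-4 #3 both passed, at 1.11 (adjusted p = 0.00225) and 1.01 (adjusted p = 0.00374). Its Control values rested on 71 to 121 fragments in Control.

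**Figure D2:**
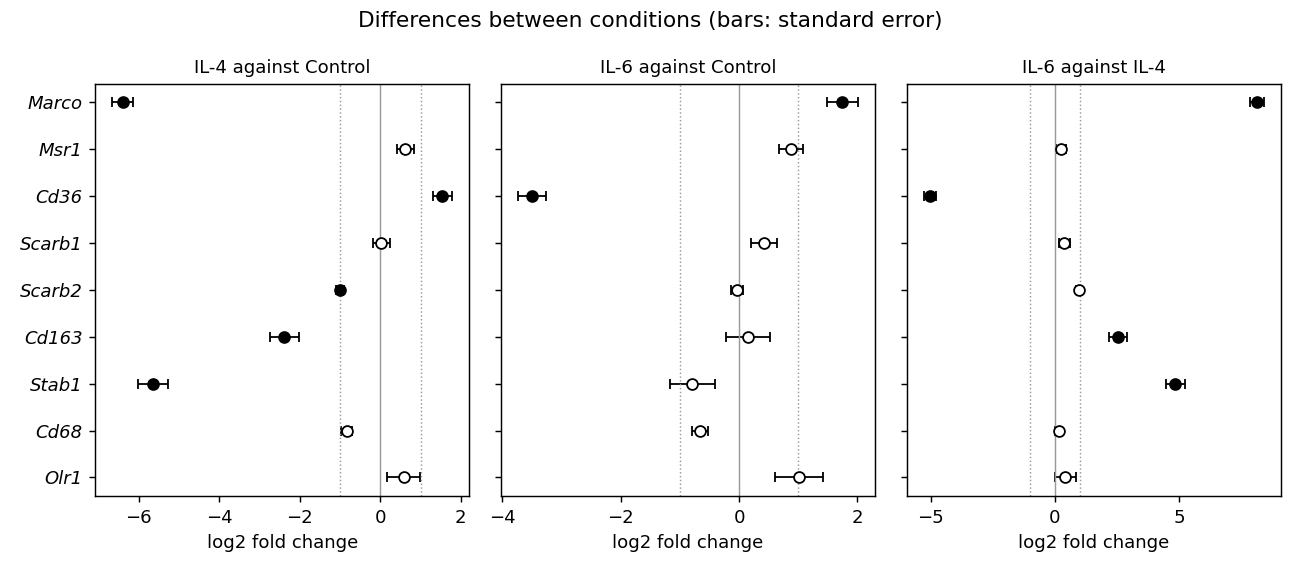
Log2 fold change of each receptor (x axis) for IL-4 against Control, IL-6 against Control and IL-6 against IL-4, bars being the standard error; filled symbols passed the call rule, and dotted lines mark a log2 fold change of 1 in either direction. The fall of Marco and Stab1 with IL-4 (−6.40 and −5.65) and of Cd36 with IL-6 (−3.50) stand out.

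A call required both an adjusted p below 0.05 and a difference of 1 or more on the log2 scale, up or down. Of the 9 receptors 5 were called with IL-4 (Cd36 higher, and Marco, Stab1, Cd163 and Scarb2 lower), where 13.9% of all tested genes were called (5.02% higher, 8.89% lower). With IL-6, 2 were called, Marco higher and Cd36 lower, against 5.38% of all tested genes (3.49% higher, 1.89% lower). Once the fit held the library set, Cd36 alone among the receptors was called with IL-6, and over all genes 147 were higher and 40 lower, against 447 and 243 without it. Between IL-6 and IL-4, 4 were called, Marco, Stab1 and Cd163 higher and Cd36 lower with IL-6, against 20.4% (13.6% higher, 6.82% lower). By the adjusted p alone, 6 receptors passed with IL-4 (24.8% of all tested genes), 4 with IL-6 (8.4%) and 5 between the cytokines (34.1%). The balance over all genes depended on scaling: with IL-4, 644 were higher and 1140 lower, but 834 and 874 after median-ratio rescaling, which moved the median of all genes from −0.20 to −0.01. Between the cytokines, 1738 were higher with IL-6 and 875 lower, but 1398 and 1165 after it. The median log2 fold change of the 9 was −0.83 with IL-4 (−0.20 over all tested genes), 0.15 with IL-6 (0.00) and 0.43 for IL-6 against IL-4 (0.22). Groups did not overlap for 6 receptors with IL-4, where 40.3% of all tested genes did not, for 7 with IL-6 (43.2%) and for 5 between the cytokines (56.9%). These shares of all genes are large, so lack of overlap alone sets no receptor apart. The exact permutation test of 3 against 3 libraries cannot go below p = 0.1.

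**Figure D3:**
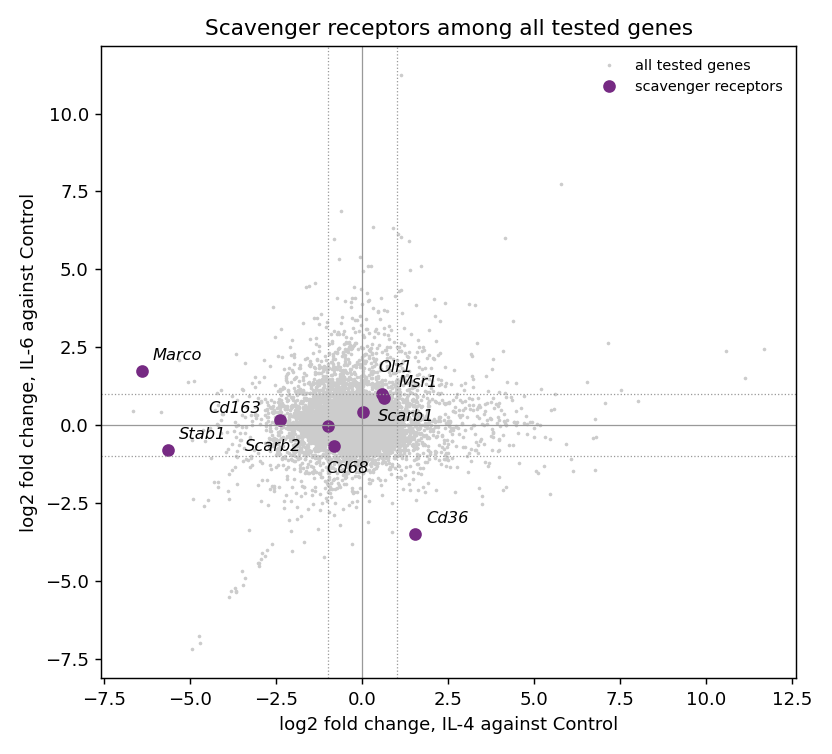
Log2 fold change with IL-6 (y axis) against that with IL-4 (x axis), each against the same Control libraries, for all 12824 tested genes (grey) and the 9 receptors (purple); dotted lines mark 1 in either direction. Marco and Cd36 lie in opposite corners, Marco low with IL-4 and high with IL-6, Cd36 the reverse.

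Within the set rich in intestinal transcripts, IL-4 #1 stood at 174-fold below the Control mean for Marco, 33.9-fold below for Stab1 and 3.36-fold below for Cd163, and at 3.30 times Control for Cd36. All 9 receptors lay outside the Control range in that 1 library, as did 68.9% of all tested genes. Within the poor set, IL-6 stood at 32.8 times the mean of IL-4 #2 and #3 for Stab1, 8.55 times for Cd163 and 2.01 times for Scarb2, and 31.9-fold below for Cd36. There 7 of the 9 receptors did not overlap, all but Cd68 and Olr1, and neither did 66.3% of all tested genes. For Marco, Stab1, Cd163 and Cd36 the whole groups did not overlap, either between IL-4 and Control or between the cytokines. Their direction within sets was thus fixed in advance and is no check of the calls. No within-set value exists for IL-6 against Control.

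**Figure D4:**
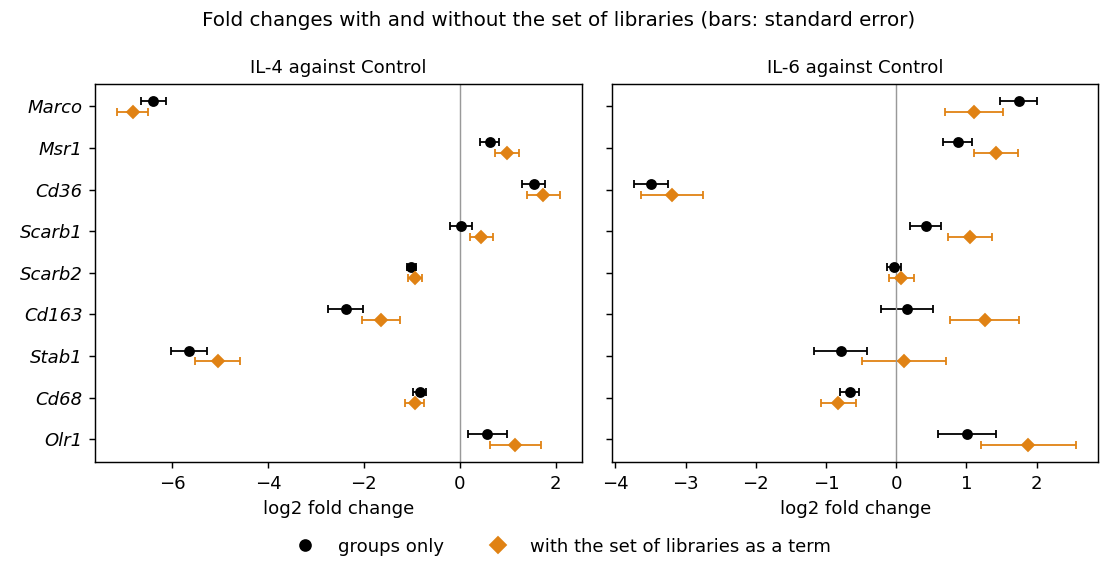
Log2 fold change against Control with groups only (black circles) and from a fit that also held the library set (orange diamonds), for IL-4 and IL-6, bars being the standard error. With IL-6, Marco moved from 1.74 to 1.11 and Stab1 from −0.79 to 0.11, while Cd36 moved from −3.50 to −3.20. The orange IL-4 values compare IL-4 #1 alone with Control.

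The fall of several receptors with IL-4 came alongside lower levels of other genes of mature Mϕs and granulocytes. Of 12 Mϕ markers 6 were called lower with IL-4 and 0 higher, and with IL-6 2 were called higher (Cd14 and C1qa) and 0 lower. Itgam stood at 0.71 with IL-4 (adjusted p = 0.0701). The summed level was 7458 to 9209 FPKM with IL-4, 18827 to 22145 in Control and 23955 to 24542 with IL-6, most of it Lyz2. Over the other 11 markers the sums were 2674 to 3475, 5041 to 6081 and 5579 to 6103 FPKM. Of 9 granulocyte markers 8 were called lower with IL-4, with sums of 2190 to 4133 FPKM against 4910 to 8780 in Control and 7956 to 11111 with IL-6. The part of cell composition in the receptor differences was not tested.

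Among 20 other scavenger and endocytic receptors, 11 passed the filter. With IL-4, 1 was called higher and 3 lower, and likewise 1 higher and 3 lower with IL-6. The values of these genes and of the lists that follow come from the main fit, which held no library set. Cxcl16, a membrane chemokine that also binds oxidised lipoprotein, moved as Marco did, going from a Control level of 50.2 ± 4.19 FPKM to 14.2 ± 2.94 under IL-4 and 101.4 ± 2.10 under IL-6 (log2 fold changes −1.83 and 1.02, adjusted p = 0.000105 and 0.00564). Cd5l, a secreted protein of the scavenger receptor cysteine-rich family, fell by 3.11 with IL-4 on the log2 scale and stood at 1.24 with IL-6 (adjusted p = 0.0719). Asgr2, a subunit of the asialoglycoprotein receptor, fell with both cytokines (log2 fold changes −2.20 and −2.25). Mrc1, the mannose receptor, rose by 1.56 with IL-4 and stood at 0.82 with IL-6 (adjusted p = 0.243).

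Of 15 genes for co-receptors, signalling partners and sheddases, 13 were tested, with 1 higher and 2 lower with IL-4 and 1 higher and 1 lower with IL-6. Cd9, a tetraspanin that associates with CD36, fell with IL-6 (log2 fold change −1.41, adjusted p = 0.003) and stood at 0.82 with IL-4 (adjusted p = 0.0135). Fyn, a kinase downstream of CD36, rose by 1.80 with IL-4. Tlr2, a bacterial lipoprotein sensor that cooperates with MARCO and CD36, fell by 4.10 with IL-4 and rose by 1.14 with IL-6. Adam17, a sheddase of CD163, fell by 1.07 with IL-4.

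Lipid handling genes gave 14 tested of 15, with 2 higher and 2 lower with IL-4 and 0 higher and 2 lower with IL-6. Lpl, which releases fatty acids from lipoproteins, followed the direction of Cd36, at 187.9 ± 43.9 FPKM in Control, 514.6 ± 81.7 under IL-4 and 64.4 ± 3.47 under IL-6 (log2 fold changes 1.47 and −1.52, adjusted p = 0.000822 and 0.00222). Abcg1, a cholesterol exporter, did likewise at 1.28 and −1.08. Apoe, the apolipoprotein of Mϕs, fell by 4.58 with IL-4 and stood at −0.52 with IL-6. Fabp5, a fatty acid carrier, fell by 1.03 with IL-4.

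All 8 genes for haemoglobin, haem and iron handling were tested, with 0 higher and 3 lower with IL-4 and 1 higher and 0 lower with IL-6. Hp, the haptoglobin whose complex with haemoglobin CD163 binds, fell by 2.05 with IL-4 and rose by 2.72 with IL-6. Slc40a1, the iron exporter ferroportin, fell by 3.87 with IL-4, and Fth1, the ferritin heavy chain, by 1.10.

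All 15 regulators were tested, with 3 higher and 2 lower with IL-4 and 3 higher and 2 lower with IL-6. Pparg, a lipid-sensing nuclear receptor known to act on Cd36, stood at 17.9 ± 2.23 FPKM in Control, rose to 46.6 ± 3.05 with IL-4 and fell to 4.22 ± 1.20 with IL-6 (log2 fold changes 1.38 and −2.09, adjusted p = 0.00254 and 0.000944). Maf, a transcription factor of resident Mϕs, fell by 3.71 with IL-4 and stood at 0.11 with IL-6. Klf4 and Egr2, transcription factors of alternative activation, rose by 4.22 and 2.61 with IL-4, and with IL-6 Klf4 rose by 1.39 and Egr2 fell by 1.06.

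Across the 9 libraries, among 6559 genes with a mean of at least 5 FPKM, the profiles most like each receptor were named by Pearson r on the log2 scale, as a description, since the points share group, set and library. Marco was nearest to Pilrb2 (r = 0.998) and Xylt2 (0.997), and Stab1 to Ms4a6b and Hpgds (both 0.996). Cd36 was nearest to its partner Cd9 (0.993) and to Dnmt3aos (0.989), an antisense transcript whose reads cannot be told apart from those of Dnmt3a if strand was not used in counting. Scarb1 was nearest to Srebf2 (0.983), the main activator of sterol synthesis genes, and Aacs (0.982), and Scarb2 to Sgsh (0.999), a lysosomal hydrolase, and Neurl3 (0.997). Cd163 was nearest to Rhot2 and Rcsd1 (both 0.993), Cd68 to Tmem106c (0.988) and Gstm1 (0.985), Msr1 to Tmed5 (0.98) and Spred1 (0.965), and Olr1 to Abhd17b (0.981) and Ipmk (0.979).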

How the data were processed

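RNA of 9 cultures of mouse BM-derived Mϕs was sequenced by the authors from poly(A) stranded libraries. Per the study's methods and the submitters' processing notes, reads were aligned to GRCm38 with STAR 2.4.2a, and the deposited values are FPKM per gene. For FPKM the methods name Cufflinks 2.2.1 and an earlier GENCODE release than the one used here. Multiplied by the union exon length of GENCODE M21, 100.0% of 141431 values below 1000 fragments came out as whole fragments (within 0.05) for suitable library totals; these gave the depths and a count-based alternative. Of 53379 identifiers, 94.8% matched M21 with their version. The whole fragments rest on M21 lengths and not on the release named, so what made the deposited values is not settled. How the counting treated strand and shared reads is not given in the sources used here.

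Differences were tested with limma 3.58.1 (R 4.3.3, trended robust empirical Bayes, two-sided) on log2(FPKM + 0.1) over 12824 genes with a mean of at least 0.5 FPKM, all 9 libraries in 1 fit, with Benjamini-Hochberg adjustment over all tested genes. A call required an adjusted p below 0.05 together with a difference of 1 or more, up or down, on the log2 scale. Fold changes stated as ratios are of mean FPKM. Scripts were tested on simulated data. Depth limited chiefly Marco and Cd163 with IL-4 and Olr1.

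The 9 receptors and the lists of related genes and markers were chosen with earlier results of these data known. Related genes were named as up to 4 a list, those called against Control with the largest change, and the 2 most correlated genes for each receptor. Sets of libraries were defined by 14 intestinal genes (cut at 5 of every 1000000 fragments), Lyz1 being left out as a near copy of abundant Lyz2. Besides the lists described, dendritic cell markers summed to 2.35 to 4.87 FPKM over all libraries and fibroblast markers to 0.128 to 0.625. B and T cell markers summed to 8.58 to 21.3 and skeletal muscle markers to 11.7 to 65.8. The muscle genes Myl1 and Myh1 were at 0 in Control and reached 1.27 and 0.511 FPKM with IL-6. Of 7 muscle markers tested, 0 were called higher and 1 lower with IL-6.

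The main fit held no term for the mouse, and the replicate number was a block in an alternative only. The design text names 3 mice and the column headers number them, so same-numbered libraries may share a mouse. Their deviations from the group means correlated at 0.521, −0.415 and 0.0777 between IL-4 and Control, 0.408, 0.201 and 0.166 between IL-6 and Control, and 0.281, −0.0612 and 0.153 between IL-6 and IL-4. Whether separate cultures were made per mouse is not stated, so p-values measure the spread between these libraries. Alternatives were other pseudocounts, filters, scalings, fits and call rules, the set of libraries or the replicate number as a term, voom on fragments, leaving out each library and, added after seeing the data, removing each library's trend on exon length.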

Additional observations from a re-analysis of the deposited data

How the results depend on the processing

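Of 561 log2 fold changes of receptors recomputed under alternatives, 535 kept their direction and their side of the call rule, 8 lost a call, 10 gained one and 8 changed sign, none of these 8 in a called value. The sign changes were Cd68 between IL-6 and IL-4 with median-ratio rescaling (−0.0347), and Scarb2 with IL-6 under quantile normalization (0.0192), in the fit that held the library set (0.0737) and without Control #1 (−0.073 to 0.0183 over all libraries left out). Stab1 with IL-6 did so with the set term (0.11), Scarb1 with IL-4 without IL-4 #1 or #2 (−0.18 to 0.3033 over all libraries left out), and Olr1 between the cytokines without IL-4 #3 (−0.0987 to 0.7222). The lost calls were Scarb2 with IL-4 (7 settings) and Marco with IL-6 (the set term). The gained calls included Scarb2 between the cytokines (4 settings) and Olr1 with IL-6 (2) and IL-4 (1). Cd68 with each cytokine and Msr1 with IL-6 gained a call only where the fold was not required. Between the cytokines, the set term and leaving out IL-4 #1 give the same fold changes, so these 2 settings are not independent. The number of receptors called ran from 4 to 6 for IL-4, from 1 to 4 for IL-6 (1 with the set term, 4 with the adjusted p alone) and 3 to 5 between the cytokines; leaving out 1 library gave 4 to 5, 2 to 3 and 4 to 5.

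Over all tested genes, calls numbered 1784 for IL-4, 690 for IL-6 and 2613 between the cytokines. Restricting to a mean of at least 5 FPKM gave 847, 306 and 1219, fewer genes being tested; the adjusted p alone gave 3186, 1077 and 4375; the set term gave 1111 with IL-4 and 187 with IL-6. Leaving out 1 library gave 1450 to 2150, 387 to 1001 and 2124 to 3274. For IL-6 the count was 445 without Control #2, 387 without Control #3, 424 without IL-6 #2 and 408 without IL-6 #3. Median-ratio rescaling moved the median log2 fold change with IL-4 from −0.20 to −0.01 and the split from 644 higher and 1140 lower to 834 and 874 (quantile 824 and 849), and between the cytokines from 0.22 to 0.02 and from 1738 and 875 to 1398 and 1165 (quantile 1305 and 1260). For IL-6 the set term gave 147 higher and 40 lower against 447 and 243. The cause of these shifts was not tested.

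With the replicate number as a block, 5, 2 and 4 receptors were called as before, and 1788, 656 and 2734 genes in all; the block changed no call of a receptor.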
